A study of Mus musculus with 2 samples.

Results

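The YTH-domain readers are the 5 mouse proteins that carry the YTH fold, a pocket that binds N6-methyladenosine (m6A) in RNA. Their genes, Ythdf1, Ythdf2, Ythdf3, Ythdc1 and Ythdc2, were taken by symbol, and all 5 were found among the 32285 genes of the deposited tables. They were followed through the immune lineages of tumors that MC38, a colon carcinoma line of the mouse, had formed in WT animals. The study pooled 4 tumors per library. One library held cells of untreated tumors (Control), and the other held cells of tumors exposed 4 days earlier to ionizing radiation (IR), given as 20 Gy at once. CD45+ cells were sorted from both. The records of both samples also name the cells CD45+CD11b+Ly6Chi, which the data go against, since T cells, NK cells, dendritic cells (DCs) and collagen-expressing cells were all present.

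The 3 YTHDF proteins are closely related readers of the cytoplasm. YTHDF2 brings methylated mRNA to the CCR4-NOT deadenylase and so to decay, YTHDF1 is known for promoting translation, and YTHDF3 works with both. YTHDC1 is the reader of the nucleus, where it acts on splicing with SRSF3 and on mRNA export, and YTHDC2 is an RNA helicase best known from the germ line. In immune cells, the paralogs have been studied in antigen presentation by DCs, in inflammatory responses of macrophages and in NK cell function.

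On GRCm38 (mm10), Ythdf1 (ENSMUSG00000038848) lies on chromosome 2 from 180904377 to 180920949 on the minus strand, Ythdf2 (ENSMUSG00000040025) on chromosome 4 from 132184912 to 132212303 on the minus strand, and Ythdf3 (ENSMUSG00000047213) on chromosome 3 from 16183212 to 16217037 on the plus strand. Ythdc1 (ENSMUSG00000035851) lies on chromosome 5 from 86804221 to 86836659 on the plus strand and overlaps the lincRNA Gm43055 on the same strand, so its counts are less certain. Ythdc2 is ENSMUSG00000034653. The DNA upstream of Ythdf1, Ythdf2 and Ythdc1, the 3 readers with an entry in the RefSeq promoter table (GRCm38.p6), is shown because the levels of these genes followed different lineages. Each run covers bases -250 to -51 from the RefSeq start in the direction of the gene, chr2:180920987-180921186 on the minus strand, chr4:132212307-132212506 on the minus strand and chr5:86804016-86804215 on the plus strand. Capitals mark every match, on either strand, to GGGCGG (the GC box), CCAAT and CACGTG (an E-box).
Ythdf1: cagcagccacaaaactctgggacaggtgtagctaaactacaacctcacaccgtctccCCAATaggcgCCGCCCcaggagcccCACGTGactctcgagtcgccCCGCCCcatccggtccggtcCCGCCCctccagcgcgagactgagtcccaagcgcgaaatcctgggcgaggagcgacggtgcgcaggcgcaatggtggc
Ythdf2: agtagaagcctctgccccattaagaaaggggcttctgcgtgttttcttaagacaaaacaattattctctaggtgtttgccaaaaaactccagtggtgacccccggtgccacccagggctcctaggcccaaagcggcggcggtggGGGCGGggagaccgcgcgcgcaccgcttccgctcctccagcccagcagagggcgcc
Ythdc1: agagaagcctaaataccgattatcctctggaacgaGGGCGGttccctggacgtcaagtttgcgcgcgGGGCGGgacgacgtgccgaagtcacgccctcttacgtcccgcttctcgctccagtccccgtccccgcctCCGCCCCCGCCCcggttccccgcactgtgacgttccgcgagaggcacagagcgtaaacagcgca
The GC box was matched 3 times upstream of Ythdf1, 1 time upstream of Ythdf2 and 4 times upstream of Ythdc1, and 24.6% of 32817 windows of this length held it. The upstream DNA of Ythdf1 also held 1 CCAAT and 1 CACGTG, which occurred in 28.4% and 4.34% of windows, and neither occurred upstream of the other 2 genes. TATAAA (the TATA box), held by 9.14% of windows, had no match in these 3. Nor did the AP-1 site TGANTCA, held by 5.58%, or the NF-kB consensus, held by 5.70%. A missing match says only that these letters are not in the window. Since the window ends at -51, it cannot show a TATA box nearer the start. The GC content was 66.5%, 61.0% and 65.5% for Ythdf1, Ythdf2 and Ythdc1.

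Values are CPM, the UMIs (unique molecular identifiers, 1 per captured RNA molecule) of a reader per 1000000 UMIs of a cell population, with the exact 95% Poisson interval of the count. In a 3′ assay each molecule is counted once whatever its length, so levels of different genes are given on this scale without a length correction. The libraries held 48593879 (Control) and 42406461 (IR) UMIs, and 4679 and 3411 barcodes passed at least 1000 UMIs and at most 25% mitochondrial UMIs. Of the barcodes with at least 1000 UMIs, 7 were found in both libraries. Lineages were gated by UMIs of marker genes, and at least 1 marker was among the 10 leading genes of every gate, the intermediate one included (Ccr2). Since the cells were picked by these markers, this does not test what the gates hold. The 8 gates with at least 500000 UMIs in both libraries carry the results: CD8 T cells, other T cells (led by Trdc), NK cells, mature DCs (Ccr7, Fscn1), classical monocytes (Ly6c2, Plac8, with few C1q UMIs), C1q macrophages, an intermediate gate between the last 2, and stromal cells (Sparc, Col3a1). The stromal gate had 2.69 CPM of Ptprc, the gene of CD45, in Control and 4.12 in IR, against 135 or more in the other 7 gates, and whether it held tumor cells was not tested. With 1 library per group there is no replicate, no test was run, and every interval covers counting error only. "Apart" below means that 2 Poisson intervals did not overlap.

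Summed over all gated cells, none of the readers differed by a large factor between the libraries. Ythdc1 was the most abundant with 82.6 CPM in Control and 76.9 in IR. The paralogs Ythdf2 (44.3 and 44.2 CPM), Ythdf1 (42.3 and 40.1) and Ythdf3 (37.2 and 36.2) lay close to each other, and Ythdc2 was the rarest at 12.8 and 11.6. These sums hide the differences between lineages that follow, as the readers differed in which lineages held most of them, plotted gate by gate with both libraries.

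**Figure D1:**
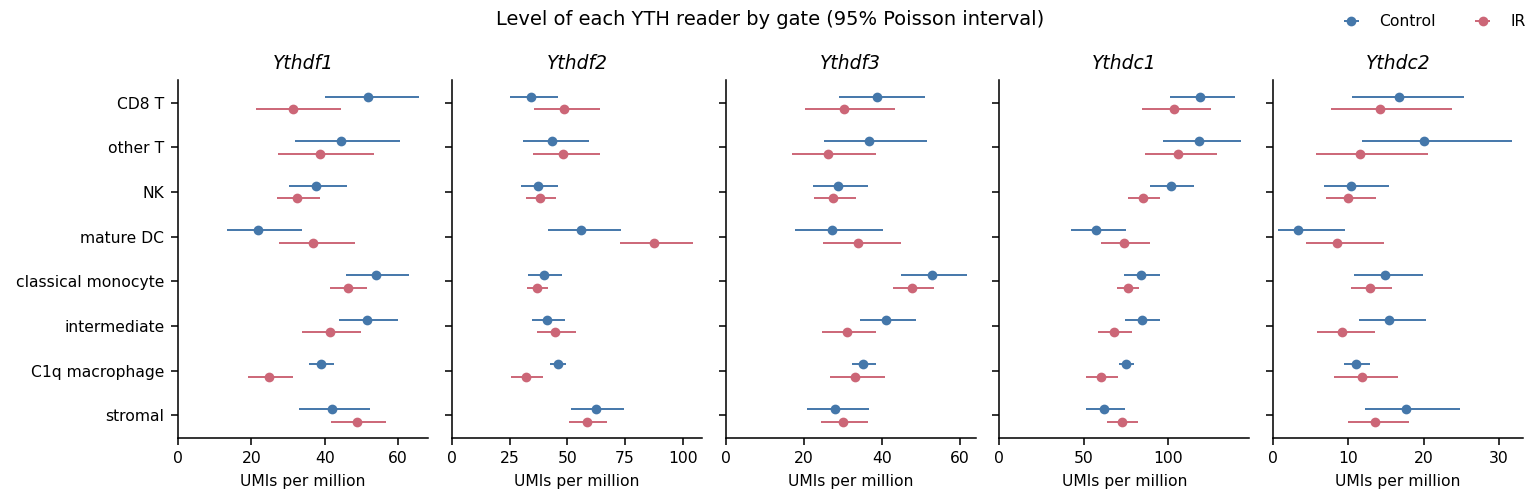
Level of each YTH reader (CPM, horizontal axis) in 8 gates (rows), Control in blue and IR in red, with the 95% Poisson interval as bars. Ythdc1 is highest in the T cell gates (103 to 119 CPM), and Ythdf2 in IR mature DCs reaches 87.6 CPM.

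Ythdc1, the nuclear reader, was highest in T cells and next in NK cells. T cells of all subsets together held 327 UMIs in Control, 124 CPM (111 to 139), and 256 UMIs in IR, 113 CPM (99.7 to 128). NK cells had 101 CPM (89.0 to 115) and 85.0 CPM (76.0 to 94.8), which was above C1q macrophages and apart in both libraries, as were 20.4% of 7970 genes. In Control, the intermediate gate (84.3 CPM), classical monocytes (83.9), C1q macrophages (74.9), stromal cells (61.8) and mature DCs (56.9) followed. In IR the order was classical monocytes (76.1 CPM), mature DCs (73.5), stromal cells (72.6), the intermediate gate (67.9) and C1q macrophages (60.1). T cells and NK cells overlapped in Control and were apart in IR, at a log2 difference of 0.41 (0.17 to 0.65). Below them, large gates next to each other in the order of either library had overlapping intervals.

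The T cell level of Ythdc1 was above that of C1q macrophages by 0.73 (0.55 to 0.91) on the log2 scale in Control and by 0.91 (0.62 to 1.20) in IR, apart in both libraries and past 1.5-fold in both. Past 1.5-fold in both libraries lay 21.7% of 7496 genes higher in T cells, so lineage differences of this size are common. Against mature DCs, the difference was -1.13 (-1.58 to -0.70) and -0.62 (-0.97 to -0.29), mature DCs lower, as were 31.6% of genes. Classical monocytes were also below T cells, which stood 0.57 higher in both libraries (0.33 to 0.81 in Control, 0.35 to 0.79 in IR) and apart, as did 24.2% of 7693 genes. The small CD4 T and regulatory T gates had the highest values of the T subsets. Control CD4 T cells held 29 UMIs (165 CPM, 110 to 236) and IR CD4 T cells 32 (157 CPM, 107 to 221). Regulatory T cells held 36 UMIs (149 CPM, 104 to 206) and 21 (184 CPM, 114 to 281). Those 4 intervals overlapped with those of CD8 T cells, at 119 CPM in Control and 103 in IR. The free RNA estimated from macrophage genes was 22.9% and 22.3% of the UMIs in these 2 small gates in Control, against 6.30% in CD8 T cells, and 6.77% and 13.2% against 9.87% in IR, and its part was not tested.

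Since CPM depends on what else a cell makes, Ythdc1 was also set against the YTHDF genes alone. Its share of the summed UMIs of Ythdc1 and the 3 YTHDF genes was 50.9% in Control T cells (exact binomial 47.0% to 54.9%, 327 UMIs of Ythdc1 and 315 of the YTHDF genes) and 50.5% in IR T cells (46.1% to 54.9%, 256 of Ythdc1 and 251 of the YTHDF genes). NK cells were next with 49.4% (44.9% to 53.9%) and 46.4% (42.6% to 50.1%). The other large gates lay lower, with the intermediate gate at 38.6% and 36.7%, classical monocytes at 36.4% and 36.7%, C1q macrophages at 38.4% and 40.1%, mature DCs at 35.1% and 31.7%, and stromal cells at 31.9% and 34.6%. T cells therefore held about as many Ythdc1 UMIs as UMIs of all 3 YTHDF genes together, and the T cell intervals lay above those of these 5 gates in both libraries.

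Among the large gates, Ythdf2, the YTHDF paralog tied to decay, had its highest levels in mature DCs, the migratory DCs that carry antigen to lymph nodes, and in stromal cells. Mature DCs held 51 Ythdf2 UMIs in 114 Control cells (55.8 CPM, 41.5 to 73.4) and 124 UMIs in 137 IR cells (87.6 CPM, 72.9 to 104). The Control interval of mature DCs overlapped with those of all other large gates, among them C1q macrophages (42.4 to 49.6) and classical monocytes (32.9 to 47.6). In Control their level was thus not set off from the other gates beyond counting error. Stromal cells held 116 UMIs (62.3 CPM, 51.5 to 74.7) and 199 UMIs (58.5 CPM, 50.7 to 67.2), apart from C1q macrophages in both libraries, as were 37.2% of 8633 genes. Ranked by Ythdf2, neighbouring large gates overlapped in both libraries, except mature DCs and stromal cells of IR. The other 2 paralogs were lower in mature DCs, Ythdf1 at 21.9 CPM in Control and 36.7 in IR and Ythdf3 at 27.3 and 33.9. Ythdf2 thus made up 53.1% (42.7% to 63.4%) of the YTHDF UMIs of Control mature DCs and 55.4% (48.6% to 62.0%) of those of IR mature DCs. In classical monocytes that share was 27.1% (23.0% to 31.6%) and 28.2% (25.3% to 31.3%), apart from mature DCs in both libraries. In between were, of the large gates and all T cells together, stromal cells with 47.2% and 42.6% and C1q macrophages with 38.2% and 35.7%. NK cells (36.1% and 38.9%), T cells (31.4% and 43.4%) and the intermediate gate (30.9% and 38.2%) also lay in between. Stromal cells overlapped with mature DCs in Control (40.8% to 53.6%), and T cells did in IR (37.2% to 49.8%). The immature cDC2 gate, with 62 and 69 YTHDF UMIs, had 29.0% (18.2% to 41.9%) and 39.1% (27.6% to 51.6%). Other small gates rested on fewer UMIs, cDC1 with 7 of 22 in Control (31.8%, 13.9% to 54.9%) and 13 of 21 in IR (61.9%, 38.4% to 81.9%), and B cells with 11 of 19 (57.9%, 33.5% to 79.7%) and 4 of 5 (80.0%, 28.4% to 99.5%), all overlapping with mature DCs.

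**Figure D2:**
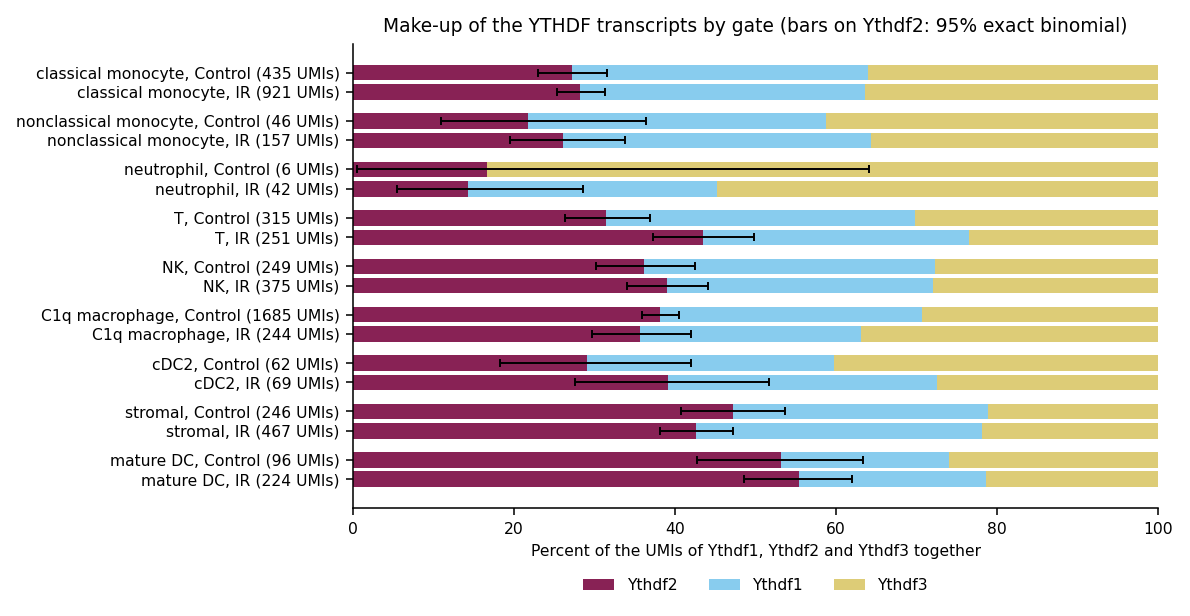
Stacked bars give the percent of YTHDF UMIs (horizontal axis) that came from Ythdf2 (purple), Ythdf1 (blue) and Ythdf3 (yellow) in 9 populations, with the 95% exact binomial interval on the Ythdf2 bar and the number of UMIs in the row label. Ythdf2 makes up 53.1% and 55.4% in mature DCs and 27.1% and 28.2% in classical monocytes.

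The UMIs of Ythdf2 were spread over many mature DCs rather than held by a few. In Control, 35 of 114 cells had at least 1 UMI, and no cell had more than 3. In IR, 65 of 137 cells had at least 1 UMI and the highest cell had 6. Within the mature DC gate, Ythdf2 was higher in cells with more Fscn1, the actin-bundling gene that marks DC maturation. At or above the median Fscn1 level of the gate, Ythdf2 was at 85.5 CPM (58.1 to 121) in 49 Control cells and 106 CPM (84.8 to 131) in 77 IR cells. Below it, the levels were 36.3 CPM (22.2 to 56.0) in 65 Control cells and 63.4 CPM (45.1 to 86.7) in 60 IR cells. The 2 sets were apart in Control, and their intervals overlapped slightly in IR. Ythdf1, Ythdf3, Ythdc1 and Ythdc2 had overlapping intervals between the 2 sets in both libraries. This split was made after the values of the gate had been seen, on a gene that also served to gate these cells. The share of all genes apart between the 2 sets was not computed, so the split does not show a trait particular to Ythdf2.

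**Figure D3:**
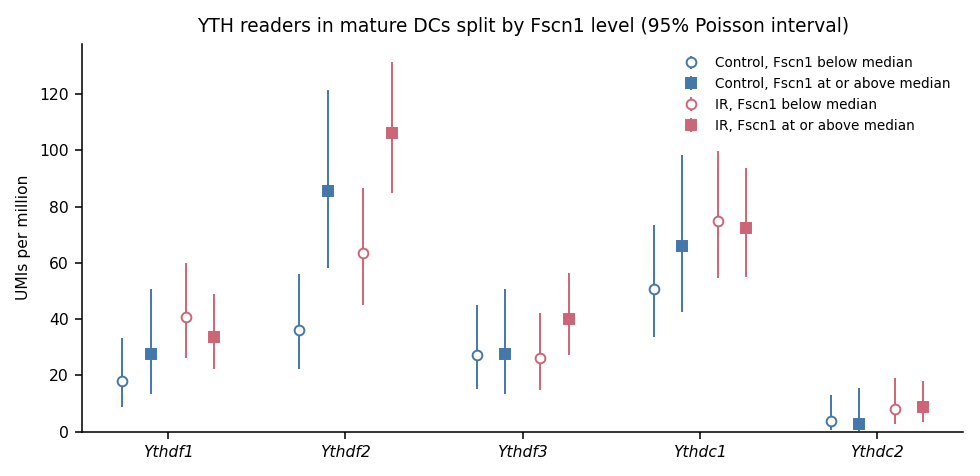
Level of each reader (CPM, vertical axis) in mature DCs below (open circles) and at or above (filled squares) the median Fscn1 level, Control in blue and IR in red, with 95% Poisson intervals. Ythdf2 is at 36.3 and 63.4 CPM below the median and at 85.5 and 106 CPM at or above it.

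Among the 8 large gates, Ythdf3 was highest in classical monocytes in both libraries, and Ythdf1 in Control. For Ythdf1, Control CD8 T cells (51.8 CPM) and the Control intermediate gate (51.5 CPM) lay close to classical monocytes, with overlapping intervals. Its Control level was thus not particular to monocytes. In IR, Ythdf1 stood at 48.8 CPM in stromal cells (41.7 to 56.8), overlapping with classical monocytes. In classical monocytes, the Control level of Ythdf1 was 53.9 CPM (45.9 to 62.9) and its IR level 46.3 (41.4 to 51.6), and those of Ythdf3 were 52.9 (44.9 to 61.8) and 47.9 CPM (42.9 to 53.3). In C1q macrophages, Ythdf1 was at 39.0 CPM (35.8 to 42.4) and 24.7 CPM (19.1 to 31.4), and Ythdf3 at 35.3 CPM (32.3 to 38.6) and 33.2 CPM (26.7 to 40.8). Both genes were thus higher in monocytes, apart in both libraries, as were 11.9% of 8360 genes in this comparison. The log2 difference was 0.47 and 0.91 for Ythdf1 and 0.58 and 0.53 for Ythdf3, so neither passed 1.5-fold in both libraries, as 6.96% of genes did. Ythdf3 in T cells, at 36.1 and 26.1 CPM, was below classical monocytes and apart in both libraries, as were 21.3% of 7693 genes. Ythdf2 did not share this pattern, with 39.7 CPM in monocytes against 45.9 in C1q macrophages in Control and 37.0 against 32.1 in IR, overlapping in both. Nonclassical monocytes, a small gate, had 72.4 and 56.2 CPM of Ythdf1 and 80.9 and 52.5 CPM of Ythdf3, overlapping with classical monocytes.

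Because monocytes mature into macrophages in tumors, the readers were also followed along the share that C1q genes take of the monocyte and C1q marker UMIs of a cell. From cells with a C1q share under 5% to cells with 95% or more, Control cells went from a Ythdf1 level of 58.5 (48.7 to 69.6) to one of 31.9 CPM (27.6 to 36.6), and IR cells from 49.6 (44.3 to 55.3) to 23.5 CPM (15.04 to 34.9). Ythdf3 went from 62.1 to 35.1 CPM in Control and from 46.1 to 26.4 in IR. Ythdc1 went from 91.6 to 66.8 CPM in Control and from 74.5 to 43.0 in IR. For these 3 readers the 2 ends were apart in both libraries. The share of all genes apart between these ends was not computed, so the count is not a result about the readers. The bins between the ends did not fall in every step, as with Ythdf1 at 56.7 CPM for Control cells of 50% to 75%. Ythdf2 went from 41.4 to 41.9 CPM in Control and from 38.6 to 33.2 in IR, with overlapping ends, and Ythdc2 from 16.1 to 10.4 and from 13.5 to 11.7, also overlapping.

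**Figure D4:**
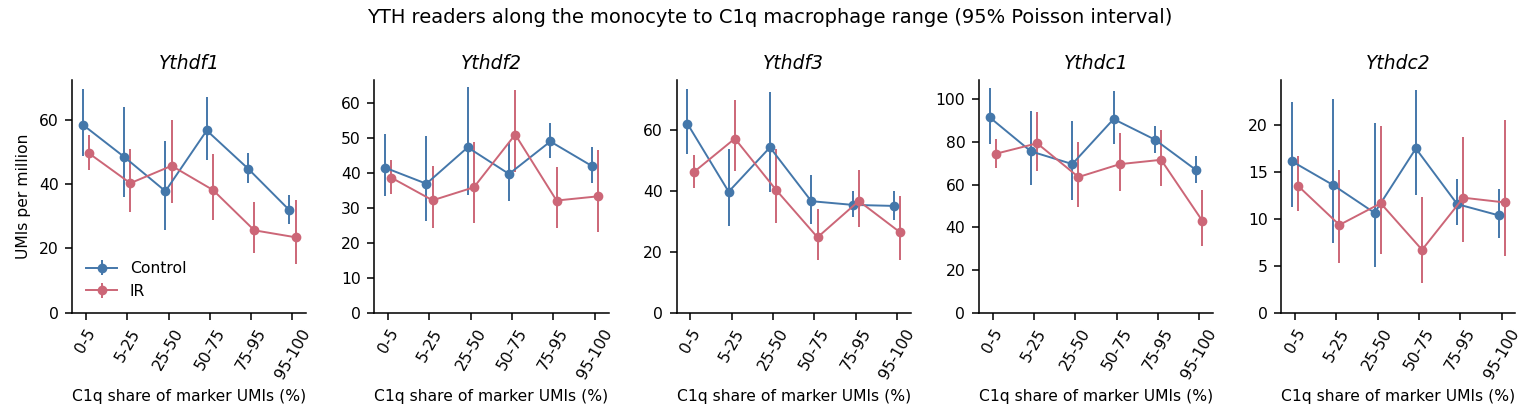
Level of each reader (CPM, vertical axis) in monocyte and macrophage cells binned by the C1q share of their marker UMIs (horizontal axis, percent), Control in blue and IR in red, with 95% Poisson intervals. Ythdf1, Ythdf3 and Ythdc1 are lower at the right end than at the left in both libraries, and Ythdf2 lies between 32.0 and 50.9 CPM throughout.

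Neutrophils and conventional DCs had few UMIs. The IR library held 139 neutrophils with 23 UMIs of Ythdf3 (54.8 CPM, 34.7 to 82.2), 13 of Ythdf1 (31.0 CPM, 16.5 to 53.0) and 6 of Ythdf2 (14.3 CPM, 5.25 to 31.1). Ythdf2 was 14.3% (5.43% to 28.5%) of their 42 YTHDF UMIs, an interval below those of mature DCs and stromal cells of that library. The 21 Control neutrophils held 5, 0 and 1 UMIs of Ythdf3, Ythdf1 and Ythdf2, where 3 UMIs amount to 76.1 CPM, so no level can be compared. In cDC1, 7 Ythdf2 UMIs in 19 Control cells gave 27.1 CPM (10.9 to 55.9) and 13 in 9 IR cells gave 115 CPM (61.3 to 197). In cDC2, the level was 40.8 CPM (24.2 to 64.5) in 57 cells and 43.0 CPM (28.3 to 62.5) in 60 cells. Ythdc2 reached at most 20.1 CPM, in Control other T cells, and at least 3.28 CPM, in Control mature DCs, among the 8 large gates. The Control interval of mature DCs, from 3 UMIs (0.677 to 9.59 CPM), lay below those of CD8 T cells, other T cells, stromal cells, classical monocytes and the intermediate gate, while in IR the interval of mature DCs (4.38 to 14.8) overlapped with those of the other 7 gates.

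The next comparison asked whether the mRNA of a reader differed between the irradiated and the untreated library within a lineage. For 37 of the 40 pairs of a reader and a large gate there were at least 50 UMIs over both libraries, and 5 of these 37 differed by at least 1.5-fold. They were Ythdf1 and Ythdf2 in mature DCs (higher in IR), Ythdf1 in CD8 T cells, Ythdc2 in the intermediate gate and Ythdf1 in C1q macrophages (lower in IR). Of all genes with as many UMIs, 16.1% passed 1.5-fold in mature DCs, 12% in CD8 T cells, 16.2% in the intermediate gate, 18.8% in C1q macrophages, 12.6% in classical monocytes, 12% in NK cells, 14.4% in other T cells and 13.5% in stromal cells. The 5 of 37 are close to these shares, so the count is not a result about the readers as a group.

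In classical monocytes, the cells closest to the Ly6Chi label, all 5 readers were slightly lower in IR and none passed 1.5-fold. Ythdf2 had 118 UMIs in 428 Control cells (39.7 CPM, 32.9 to 47.6) and 260 in 757 IR cells (37.0 CPM, 32.7 to 41.8), a log2 ratio of -0.10 with a conditional interval from -0.42 to 0.22. That interval holds no difference and does not reach a 1.5-fold rise. Ythdf1 was at -0.22 (-0.50 to 0.06), Ythdf3 at -0.14 (-0.42 to 0.14), Ythdc1 at -0.14 (-0.36 to 0.08) and Ythdc2 at -0.21 (-0.74 to 0.35). The median of all genes was -0.05 there. All 7 neutrophil markers were higher in the IR monocytes, with sums of 114 and 1144 CPM (S100a8 at 34.4 and 391, S100a9 at 13.8 and 493, Retnlg at 1.01 and 38.3), and the part of this in the ratios was not tested. Cells were deeper in IR, with a median of 8407 UMIs against 5954, so that Ythdf2 UMIs per 100 cells were 34.3 in IR and 27.6 in Control while the CPM did not differ beyond counting error.

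In C1q macrophages, 3 of the 5 readers were lower in IR with intervals apart, where 14.8% of 9762 genes were lower and apart. Ythdf1 went from 547 UMIs (39.0 CPM) to 67 UMIs (24.7 CPM), a log2 ratio of -0.66 (-1.05 to -0.29). Ythdf2 went from 643 UMIs (45.9 CPM) to 87 UMIs (32.1 CPM), -0.52 (-0.86 to -0.19). Ythdc1 went from 1050 UMIs (74.9 CPM) to 163 UMIs (60.1 CPM), -0.32 (-0.57 to -0.08). Ythdf3 (-0.09, -0.43 to 0.24) and Ythdc2 (0.09, -0.50 to 0.65) had intervals that include 0. The median of all genes was -0.10 in this gate, and TMM scaling moved all ratios of it by 0.10.

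The cells of the C1q macrophage gate also differed between the libraries. It held 1444 cells in Control (median 8964 UMIs) and 221 in IR (median 11164 UMIs). Apoe, a macrophage gene, was at 3384 CPM in Control and 1838 in IR, and the monocyte gene Ly6c2 at 23.6 and 149 CPM. The 5 macrophage markers summed to 12695 and 9746 CPM, all lower in IR. The 6 classical monocyte markers summed to 588 and 799 CPM, with 4 of them higher in IR and 2 lower, among the latter Ccr2 (413 and 254). All 7 neutrophil markers were higher in IR, with sums of 47.8 and 313 CPM (S100a8 at 22.1 and 122), and the 5 mature DC markers summed to 21.6 and 91.8 CPM (Ccr7 at 6.35 and 45.0, Fscn1 at 1.93 and 1.11). The part of these markers in the lower reader levels was not tested. Per 100 cells, Ythdc1 was at 72.7 UMIs in Control and 73.8 in IR, Ythdf2 at 44.5 and 39.4, and Ythdf1 at 37.9 and 30.3. Among cells with a C1q share of 75% to 95%, the Ythdf1 level was 44.8 CPM (40.2 to 49.8) for Control and 25.6 (18.6 to 34.4) for IR, and that of Ythdf2 48.9 (44.1 to 54.1) and 32.0 (24.1 to 41.7), both apart. Among those of 95% or more, Ythdc1 was apart (66.8 and 43.0 CPM), while Ythdf1 and Ythdf2 overlapped. Cycling cells numbered 329 in Control and 19 in IR, and Ythdf2 was at 52.6 CPM (46.0 to 59.8) in the former. Among non-cycling cells, Ythdf2 was at 42.8 CPM (38.3 to 47.6) in Control and 30.7 (23.5 to 39.4) in IR, and Ythdf1 at 38.8 (34.5 to 43.4) and 26.7 (20.1 to 34.9), slightly overlapping for both.

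In mature DCs, the 4 readers that could be compared had ratios above 0, and of these only the interval of Ythdf2 excluded 0. Ythdf2 stood at a log2 ratio of 0.65 (0.17 to 1.15), Ythdf1 at 0.75 (-0.02 to 1.57), both past 1.5-fold as were 9.82% of 4604 genes higher in IR, Ythdc1 at 0.37 (-0.12 to 0.88) and Ythdf3 at 0.31 (-0.42 to 1.07), beside a median of 0.05 over all genes. The Poisson intervals of Ythdf2 overlapped between 72.9 and 73.4 CPM. Over all DC gates together, Ythdf2 had 76 Control UMIs (45.9 CPM, 36.2 to 57.4) and 165 IR UMIs (75.6 CPM, 64.5 to 88.04), apart, at 0.72 (0.32 to 1.13), where 8.36% of 6291 genes were higher and apart. Ythdf1 (0.18) and Ythdf3 (-0.16) did not follow in that sum. Its Ythdf2 UMIs were mostly those of mature DCs, 51 in Control and 124 in IR, so the sum is not a separate result. In cDC2, the log2 ratio of Ythdf2 was 0.07 (-0.84 to 1.02). In cDC1, Ythdf2 was at 27.1 and 115 CPM, from 7 and 13 UMIs. Mature DCs held 914119 of the 1656165 UMIs of all DC gates in Control and 1415569 of 2182927 in IR. The part of this shift in the sum was not tested. The mature DC gate had 2616 CPM of Fscn1 in Control and 3834 in IR, 3469 and 3627 of Ccr7 and 3741 and 2886 of Ccl22. Markers of other lineages in the mature DC gate moved as well. The 7 neutrophil markers summed to 1.09 CPM in Control, with 6 of them at 0, and to 288 in IR, with 6 higher (S100a8 at 89.7, S100a9 at 129) and Retnlg at 0 in both. The 6 classical monocyte markers summed to 223 and 611 CPM, with 3 of them higher in IR, among them Plac8 (118 and 330) and Ly6c2 (17.5 and 102). The 5 macrophage markers summed to 158 and 42.4 CPM, all lower in IR, and the 6 T cell markers to 20.8 and 23.3 CPM. The part of these RNAs in the result was not tested. Below the Fscn1 median and at or above it, Ythdf2 was higher in IR than in Control with overlapping intervals, and the part of the Fscn1 level in the difference was not tested.

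**Figure D5:**
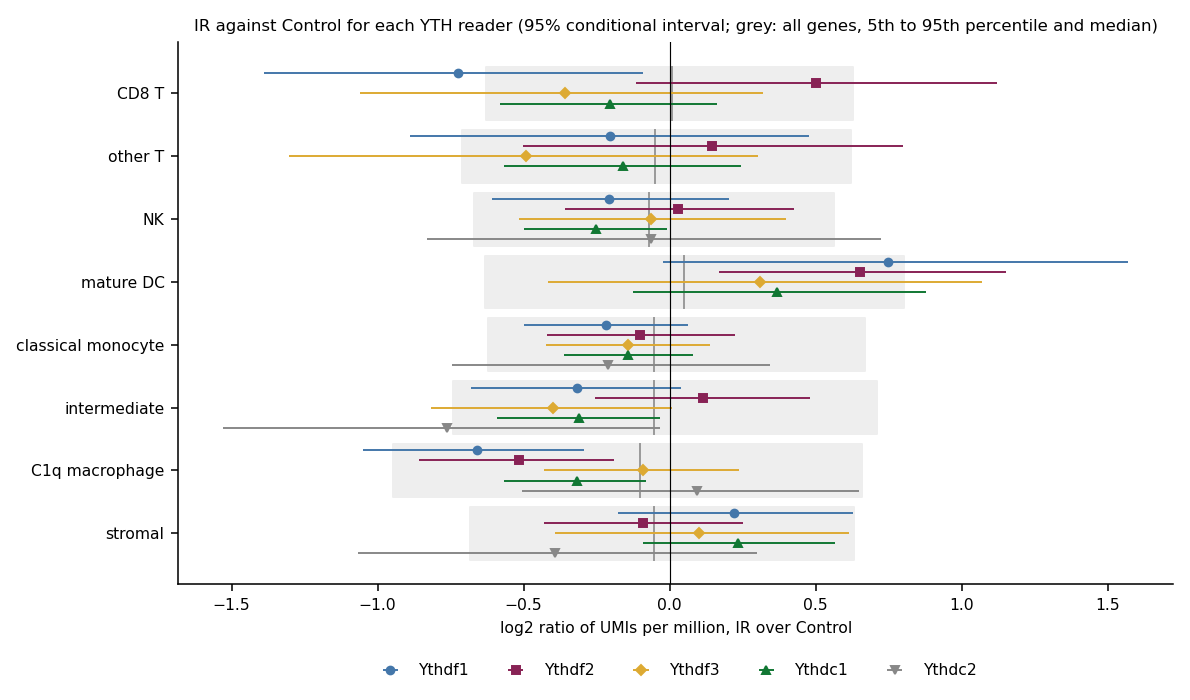
The log2 ratio of CPM, IR over Control (horizontal axis), for each reader in 8 gates (rows), with its 95% conditional interval. Grey boxes span the 5th to 95th percentile of all genes with at least 50 UMIs, and the grey line is their median. A reader with fewer than 50 UMIs over both libraries is left out, which holds for Ythdc2 in CD8 T cells, other T cells and mature DCs. The 4 readers drawn for mature DCs lie at 0.31 to 0.75, those of classical monocytes at -0.22 to -0.10.

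In T cells, the YTHDF UMIs were divided differently among the paralogs in the 2 libraries. Ythdf2 went from 99 of 315 YTHDF UMIs in Control (31.4%, 26.3% to 36.9%) to 109 of 251 in IR (43.4%, 37.2% to 49.8%), apart. In CPM, Ythdf2 was at 37.7 and 48.1 (0.35, -0.05 to 0.76), Ythdf1 at 46.0 and 36.7 (-0.33, -0.75 to 0.09) and Ythdf3 at 36.1 and 26.1 (-0.47, -0.97 to 0.01), each overlapping. CD8 T cells, which are part of this T cell sum, showed the same order of signs, with Ythdf1 at -0.73 (-1.39 to -0.09) and Ythdf2 at 0.50 (-0.12 to 1.12). They held 45 of the 99 Control and 48 of the 109 IR Ythdf2 UMIs of the sum, so this is not a separate result. When cells with markers of several lineages were kept, the Ythdf2 share of T cells was 32.6% in Control and 34.6% in IR, so that the difference was lost. NK cells showed no reader past 1.5-fold, with Ythdf2 at 0.03 (-0.36 to 0.43) and Ythdc1 at -0.25 (-0.50 to -0.01). Stromal cells had ratios from -0.39 (Ythdc2) to 0.23 (Ythdc1), all with intervals that include 0. In the intermediate gate, Ythdc1 was at -0.31 (-0.59 to -0.03) and Ythdc2 at -0.76 (-1.53 to -0.03), from 50 and 24 UMIs.

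The share of cells with a UMI was compared at equal depth. With each cell thinned to 2000 UMIs, a Ythdc1 UMI was seen in 23.1% (19.1% to 27.5%) of 407 Control and 19.2% (14.6% to 24.5%) of 261 IR T cells, after 40 and 19 shallower cells had been left out. Without thinning, 216 of 447 and 142 of 280 T cells had one. A Ythdf2 UMI was seen in 9.22% (6.61% to 12.4%) of 412 Control and 6.16% (4.54% to 8.13%) of 747 IR classical monocytes, and in 8.46% (7.05% to 10.0%) of 1395 and 10.95% (7.07% to 15.98%) of 210 C1q macrophages. In mature DCs the share was 9.09% (4.45% to 16.1%) of 110 and 13.6% (8.29% to 20.7%) of 132 cells. The intervals of the 2 libraries overlapped in each of these gates at 2000 UMIs. In C1q macrophages the order of the libraries turned with the depth, with 15.9% in Control and 10.9% in IR at 4000 UMIs and 33.4% and 29.4% without thinning, so none is read from these shares. No lineage is known to lack these genes. Free RNA, estimated from T cell genes in myeloid cells and macrophage genes in lymphocytes, would by itself give at most 1.30% at this depth in the 8 gates.

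The other genes of the m6A pathway were summarised as a list of 56 genes. It held writers such as Mettl3 and Wtap, the erasers Fto and Alkbh5, other m6A-binding proteins, and the partners of YTHDF2, YTHDC1 and YTHDC2. Counts past 1.5-fold are read against the shares of all genes given above.

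In classical monocytes, 2 of 44 list genes with enough UMIs were past 1.5-fold, the writer Mettl14 higher (12 and 49 UMIs) and the RNA-binding Lrpprc lower (47 and 68 UMIs), with a list median of -0.13 beside -0.05 for all genes. In the intermediate gate 4 of 42 were, all lower and apart. They were 3 subunits of CCR4-NOT, the deadenylase to which YTHDF2 delivers mRNA, and Lrpprc (-1.01, -1.65 to -0.40). The subunits were Cnot1 (-0.74, -1.05 to -0.42), Cnot6l (-0.75, -1.12 to -0.39) and Cnot9 (-0.86, -1.44 to -0.30). Of the 15 decay partners compared in this gate, 6 were above 0 and 9 below, with a median of -0.22 beside -0.05 for all genes. The share of all genes lower and apart in the intermediate gate is not given here. In C1q macrophages 4 of 49 were past the fold, with a median of -0.21 beside -0.10. Cnot3, another CCR4-NOT subunit, went from 491 UMIs (35.0 CPM) to 62 UMIs (22.9 CPM), a log2 ratio of -0.62 (-1.02 to -0.23), apart. Rida, which links YTHDF2 to RNase P/MRP, was lower and the RNase P/MRP subunits Rpp38 and Rpp40 higher, on 10, 12 and 17 IR UMIs, all 3 overlapping.

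Mature DCs had 3 of 31 list genes past the fold, Pop4 higher and Fmr1 and Cnot6l lower, of which Cnot6l (-0.83, -1.42 to -0.24) was apart. The median there was -0.03 beside 0.05. CD8 T cells had 2 of 36 (Fmr1 and Cnot10), other T cells 2 of 30 (Cnot6 and the export factor Nxf1) and NK cells 1 of 45 (Cnot6, -0.61, -0.93 to -0.29, apart), all lower in IR. Stromal cells had 3 of 52, with the writer Zcchc4 higher and the writer adaptor Rbm15b and the CCR4-NOT partner Tnks1bp1 lower. Apart from Cnot3, these genes were named after their values had been seen. By role, the 12 writers of C1q macrophages had a median of 0.02 with 8 above 0. The 10 other m6A-binding genes had a median of -0.38 with all 10 below 0 and 5 lower and apart, the 5 YTHDC1 partners a median of -0.38 with all 5 below 0 and 1 apart, and the 19 decay partners a median of -0.27 with 12 below 0 and 3 apart. Beside these stand the median of -0.10 over all genes of the gate and the 14.8% that were lower and apart.

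Across the 16 sums of 8 gates in 2 libraries, the genes whose level (log2 of CPM plus 10) most resembled Ythdf2 among 5718 genes were Atxn7l3b (Pearson r 0.88, Spearman rho 0.72), Dctn2 (0.87, 0.67), Eno3 (0.87, 0.71), 1110038F14Rik (0.87, 0.64) and Tuba1a (0.86, 0.66). Dctn2 encodes a dynactin subunit, Tuba1a an alpha-tubulin, and Eno3 an enolase that was itself a marker in the nonclassical monocyte gate. The readers resembled each other less, with r of -0.10 between Ythdf2 and Ythdf1, -0.34 between Ythdf2 and Ythdf3, -0.32 between Ythdf2 and Ythdc1, and 0.60 between Ythdf1 and Ythdf3. The 16 sums share libraries, and these values are a description only.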

How the data were processed

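CD45+ cells of MC38 tumors were profiled by 10x Chromium 3′ v3.1 single-cell RNA sequencing, with 1 Control and 1 IR library. As deposited, the tables hold raw counts of UMIs, which the authors made with Cell Ranger on mm10. The submitters' processing notes name Cell Ranger 6.0.1 and the header of both matrices Cell Ranger 4. The matrices were unfiltered.

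Barcodes with at least 1000 UMIs and at most 25% mitochondrial UMIs were gated by raw UMIs of marker genes, with Csf1r and Lyz2 used in addition to the marker lists. Barcodes with markers of several lineages (572 in Control, 434 in IR) and ungated ones (762, 501) were set aside. DoubletFinder, the doublet caller of the study, was not run. Cells in the top 6% by Scrublet score were left out in 1 alternative. UMIs were summed per gate and library. Ratios carry exact conditional, counts exact Poisson and shares Clopper-Pearson 95% intervals, and PCR or capture error is not covered. Only the ratio interval and the 1.5-fold rule were tried on simulated data. Those data were drawn from the Poisson model that the interval assumes, so they cannot show whether the model holds here. For counts over all genes, those with at least 50 UMIs over both libraries were used, with 0.5 added to each count, and "called" meant at least 1.5-fold. Free RNA was taken from barcodes of 10 to 100 UMIs. Named were the 5 readers in every gate, the list genes past 1.5-fold with intervals apart in monocytes or C1q macrophages, and the 5 genes most like Ythdf2 with a mean of at least 20 CPM. The members and lists were chosen with earlier results of these data known. Alternatives concerned UMI and mitochondrial limits, marker cutoffs, mixed cells, doublets, TMM (edgeR 4.0.16), the CPM total, free RNA, weighting of cells and the monocyte gate. Gene positions are from GENCODE vM21. Tools were scipy 1.17.1, scanpy 1.11.5 and R 4.3.3.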

Additional observations from a re-analysis of the deposited data

Results flagged for a closer look

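The irradiated and the untreated library differed in opposite directions for Ythdf2 in 2 lineages. Its log2 ratio, IR over Control, was 0.65 in mature DCs (51 UMIs in 114 Control cells and 124 in 137 IR cells) and -0.52 in C1q macrophages (643 UMIs in 1444 cells and 87 in 221). Both conditional intervals excluded 0, from 0.17 to 1.15 and from -0.86 to -0.19. A reader was flagged by this very rule, intervals on opposite sides of 0 in 2 large gates, so it gives no separate support. In mature DCs the Poisson intervals of the libraries overlapped (41.5 to 73.4 CPM in Control and 72.9 to 104 CPM in IR). With 1 library per group the difference between the lineages was not tested.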

How the results depend on the processing

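No paired analysis was possible because each group had 1 library, and for the same reason no replicate could be left out. Of the 405 recomputed log2 ratios of readers in the 8 large gates, 402 stayed within the counting interval of the reported value and none whose interval excluded 0 changed sign. All settings reused the same libraries and many of these intervals are wide, so this count cannot show whether the ratios would repeat. The ratio of Ythdf2 ranged from 0.42 to 0.66 in mature DCs, from -0.60 to -0.41 in C1q macrophages and from -0.23 to -0.01 in classical monocytes, and that of Ythdf1 in C1q macrophages from -0.74 to -0.56. The ratio of Ythdf1 in CD8 T cells ranged from -0.79 to -0.18, and that of Ythdc2 in the intermediate gate from -1.07 to -0.44. Of the pairs reported past 1.5-fold, only Ythdf1 in mature DCs (0.65 to 1.09) stayed past it in every recomputed setting. Gating monocytes by Ly6c2 without C1qa moved Ythdc1 there to -0.40. The mean over cells moved 2 levels in Control, Ythdc1 in T cells to 144 CPM and Ythdf3 in classical monocytes to 62.3 CPM, and 2 ratios, Ythdf1 in other T cells to 0.57 and Ythdf3 in stromal cells to -0.62. The number of reader and gate pairs past the fold was 0 of 37 at 2-fold, 6 of 39 with at least 20 UMIs a gene and 1 of 20 with at least 200. The number of m6A list genes past 1.5-fold in classical monocytes was 5 of 51 with at least 20 UMIs and 0 of 29 with at least 200, and in C1q macrophages 1 of 42 with at least 200. The share of classical monocytes with a Ythdf2 UMI was 14.2% in Control and 12.3% in IR at 4000 UMIs a cell, and 23.6% and 26.0% without thinning, where IR cells were deeper, so the order of the libraries turned only without thinning. Shares of YTHDF UMIs under other gates and filters, an alternative chosen after seeing the data, kept Ythdf2 between 50% and 56.2% in mature DCs. The Ythdf2 share of IR T cells was 34.6% with mixed cells kept, and Ythdf3 was 100% of the YTHDF UMIs of Control neutrophils under 2 settings. The cause of these changes was not tested.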
